A study of Caenorhabditis elegans with 3 samples.

Results

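Peaks at 10 protein-coding genes of the mitochondrial genome of Caenorhabditis elegans were described across 5 peak lists from chromatin immunoprecipitation followed by sequencing. The genes were ND1, ND2, ND3, ND4, ND5, COX1, COX2, COX3, CYTB and ATP6. A peak belonged to the set when its summit, the position of highest signal that the authors gave, lay in the coding sequence of one of these genes. A peak also belonged when the nearest annotated 5′ end among all 36 mitochondrial genes was that of one of them. By this rule the set held 14 of the 589 peaks of the optimal list and 15 of the 30000 peaks of the pooled list. It held 19 of 26338 peaks in replicate 1, 19 of 29455 in replicate 3 and 14 of 30000 in replicate 4. All 10 genes held at least 1 such peak in each of the 5 lists.

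The series held 1 group of 3 biological replicates, numbered 1, 3 and 4. They were embryos of mixed stage and both sexes, collected by bleaching and labelled as 4 hours old. The worms were of strain OP651, with the genotype unc-119(tm4063) and the transgene wgIs651, which carries bed-3::TY1::EGFP::3xFLAG and unc-119(+). BED-3 is a BED-type zinc finger protein, and chromatin was precipitated with an antibody against GFP, per the sample descriptions. The labels' antibody field reads bed-3 instead, and which antibody was used was not settled by the files. All replicates came from this 1 transgenic line, whose genotype lists no bed-3 mutation, and the labels name no promoter for the fusion. With 1 group and no untagged precipitation among the lists used, groups could not be contrasted, and a peak is not shown to be a site of BED-3. All 5 lists rest on the same control alignment, and read depth was not analysed here.

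The mitochondrial genome of the worm encodes 12 proteins, all of them subunits of the respiratory chain or of ATP synthase. ND1 to ND5 are subunits of complex I, the NADH dehydrogenase that passes electrons to ubiquinone and pumps protons. CYTB is the cytochrome b of complex III, COX1, COX2 and COX3 form the core of cytochrome c oxidase (complex IV), and ATP6 is the proton channel subunit of ATP synthase. The DNA is circular, is kept in many copies in a cell and is packaged without nucleosomes. The 36 annotated genes all lie on 1 strand with little sequence between them, and transcripts are cut apart at the tRNA genes.

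The sequences below run from 50 bases before to 50 bases after the summit of the highest optimal peak at each gene. They are shown because these summits are the places the lists put forward for each gene. The window listed under ND3 holds no ND3 coding sequence. Its summit lies in the large ribosomal RNA gene, 274 bp before the ND3 start, and counts by the nearest 5′ end. All are of the gene-sense plus strand of the RefSeq assembly WBcel235, which is ce11. Capitals mark the 11 bases centred on the summit.
ND1 (chrM:2138-2238): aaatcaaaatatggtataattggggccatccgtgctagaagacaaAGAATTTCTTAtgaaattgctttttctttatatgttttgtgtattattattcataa
ATP6 (chrM:2963-3063): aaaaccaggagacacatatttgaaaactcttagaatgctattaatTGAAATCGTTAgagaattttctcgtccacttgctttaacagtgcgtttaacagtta
ND2 (chrM:3581-3681): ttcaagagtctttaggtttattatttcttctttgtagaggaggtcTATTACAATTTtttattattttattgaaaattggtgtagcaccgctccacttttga
CYTB (chrM:5494-5594): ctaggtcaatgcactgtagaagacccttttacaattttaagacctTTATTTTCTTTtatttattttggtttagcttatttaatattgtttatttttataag
COX3 (chrM:5717-5817): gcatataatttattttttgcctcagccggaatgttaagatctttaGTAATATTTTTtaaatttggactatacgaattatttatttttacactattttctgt
ND4 (chrM:7038-7138): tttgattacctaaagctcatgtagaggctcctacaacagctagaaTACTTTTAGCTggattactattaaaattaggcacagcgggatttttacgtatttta
COX1 (chrM:9171-9271): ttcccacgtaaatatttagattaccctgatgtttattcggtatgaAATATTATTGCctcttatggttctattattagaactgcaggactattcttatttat
COX2 (chrM:9973-10073): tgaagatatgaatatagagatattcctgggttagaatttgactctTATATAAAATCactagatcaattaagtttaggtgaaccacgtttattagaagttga
ND3 (chrM:11032-11132): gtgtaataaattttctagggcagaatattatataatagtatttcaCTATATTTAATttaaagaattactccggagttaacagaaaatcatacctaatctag
ND5 (chrM:12406-12506): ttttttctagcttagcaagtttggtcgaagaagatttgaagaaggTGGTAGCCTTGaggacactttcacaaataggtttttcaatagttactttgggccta

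The windows at the summits of the set are mitochondrial DNA, on which no window of this length exceeded 44.6% GC. Their GC content therefore had to lie below the mean of nuclear optimal summits, which is given as a description only. Over the 14 optimal summits of the set GC content was 28.6% ± 4.21 (SD over 14 windows), against 23.8% ± 7.06 over all 13694 windows of that length on mitochondrial DNA and 49.6% ± 8.46 over 570 nuclear optimal summits. The ND5 window, at 37.6%, was the richest in GC and those of CYTB and COX3, at 23.8%, the poorest. Of the 14 optimal summits 12 lay above the chromosome's own 23.8%, a value that includes a noncoding stretch of 6.87% GC without summits. In replicate 3 the median was 23.8% and 6 of 19 summits lay above the chromosome's value, whereas 12 of 19 did in replicate 1 and 11 of 14 in replicate 4. The letters GTTCGA and GCGCGC, sought on both strands, were in none of the 14 windows nor in any window of the mitochondrial chromosome, and in 22.5% and 10.4% of nuclear optimal windows. No match says only that these letters are not in this sequence. Sequence shared with nuclear chromosomes was rare. Of 13759 36-base words of mitochondrial DNA, 12 also occurred on a nuclear chromosome, all of them in the noncoding stretch described further on and none in the 14 windows.

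Signal is the authors' value per peak, no source used here names its scale, and it is compared only within a list. The set stood near the top of every list. Of the 15 pooled peaks of the set 14 were in the optimal list, against 1.96% of all pooled peaks. The exception was a second summit inside CYTB (position 4857, signal 42.0, rank 12587). In the replicates' own lists, the median rank was 28 of 26338 in replicate 1, 24 of 29455 in replicate 3 and 18 of 30000 in replicate 4, a mean of 23.3 ± 5.03 (SD, n = 3). Of the set 18 of 19, 19 of 19 and 14 of 14 peaks were among the 1000 highest of replicates 1, 3 and 4, which made up 3.8%, 3.4% and 3.33% of those lists. The lowest was a peak at the start of ND1 in replicate 1 (summit 1828, signal 28.5, rank 1440). The highest −log10 q of a list was reached by 17 of 19, 18 of 19 and 14 of 14 peaks of the set in replicates 1, 3 and 4. Over all peaks the shares were 1.34%, 1.3% and 2.45%. In the pooled list 14 of 15 peaks of the set reached it, against 2.55% of all peaks.

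Signal at the optimal peaks of the set had a median of 855, against 187 at the 570 nuclear optimal peaks, a ratio of 4.57. In the optimal list 3 peaks of the set lay above the highest nuclear peak, which had a signal of 1360, and 1.23% of nuclear peaks lay above the median of the set. The groups overlapped, since the lowest peak of the set, in ND4, had 192 and 46.8% of nuclear optimal peaks were higher. In the replicates the peaks matched within 100 bp had a median signal of 313 for the set and 51.2 for nuclear optimal peaks in replicate 1. The values were 232 and 44.9 in replicate 3, and 606 and 104 in replicate 4. The log2 ratio was 2.51 ± 0.12 (SD, n = 3) and was above 0 in 3 of 3 replicates. An exact sign-flip permutation test over replicates, two-sided, gave p = 0.25, the smallest that 3 replicates allow, and 0.333 after Benjamini-Hochberg adjustment over the 4 such tests made.

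**Figure D1:**
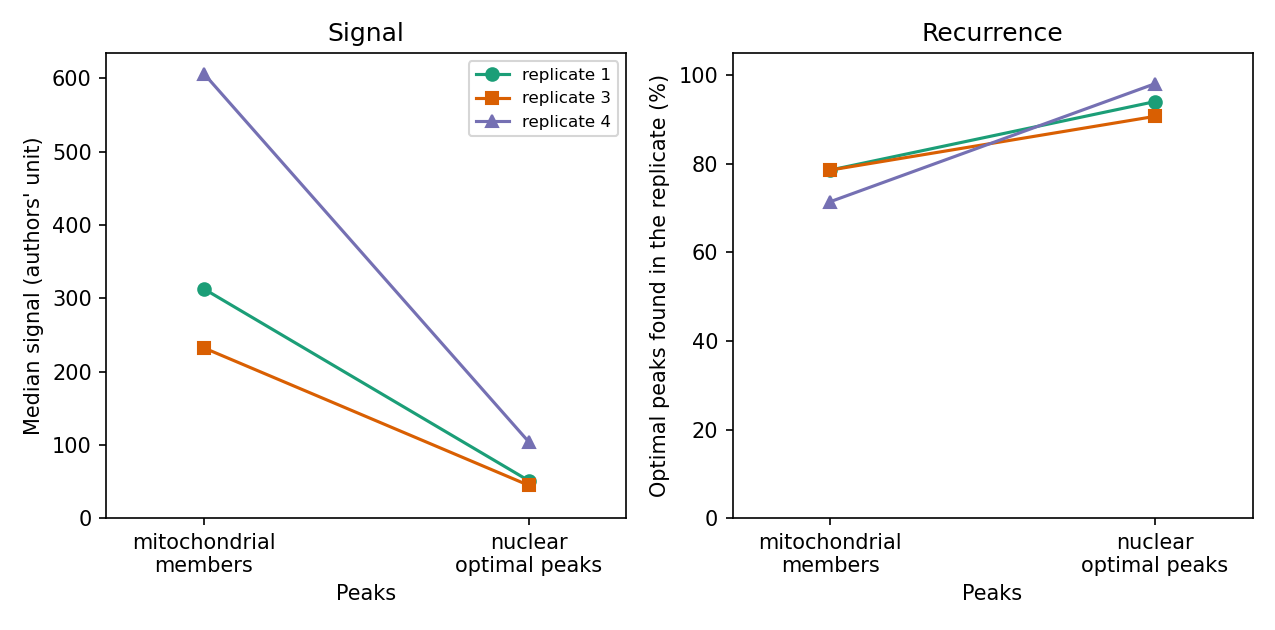
Median signal in the authors' unit at optimal peaks matched within 100 bp (left panel) and percentage of optimal peaks with a summit within 100 bp (right panel), for the mitochondrial set and for nuclear optimal peaks, with 1 line per replicate. In each replicate the set had the higher signal (606 against 104 in replicate 4) and the lower recurrence (71.4% against 98.1% in replicate 4).

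Complex I genes held the highest peak of the pooled list and differed among themselves in how steady their positions were. The widest spans of highest summits were at CYTB and COX3, outside complex I. ND5 had the highest pooled signal, 2000, with the summit at position 12456, 48% of the way along its coding sequence (11691 to 13274). Its highest peak had a signal of 313 (rank 10) in replicate 1, 542 (rank 1) in replicate 3 and 1242 (rank 2) in replicate 4. The summits lay at 12451, 12347 and 12458 in replicates 1, 3 and 4. Those of replicates 1 and 4 nearly coincided with the pooled one, whereas that of replicate 3 lay upstream of it. A second, lower summit lay downstream in replicate 3 at 12547 (signal 211, rank 18) and in replicate 4 at 12661 (signal 145, rank 166).

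ND4 differed in pattern between replicates. The pooled list placed summits at 7088 (signal 1225), 7293 (1096) and 7645 (192) in its coding sequence (6506 to 7735). Replicate 1 had summits at 7092 (signal 439, rank 3) and 7659 (314, rank 9) and none near the middle one. Replicate 3 had a single summit at 7326 (258, rank 9) and replicate 4 a single one at 7323 (894, rank 3). The outer pooled summits thus had a match within 100 bp in replicate 1 only and the middle one in replicates 3 and 4 only.

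ND1 kept its place more closely, with its highest summits at 2153 (signal 173, rank 28) in replicate 1, 2247 (265, rank 8) in replicate 3 and 2158 (613, rank 9) in replicate 4, all near the middle of the coding sequence. ND2 did not. Its summit lay at 4114 (signal 142, rank 46) in replicate 1, 82% along the gene, but at 3619 (193, rank 21) in replicate 3 and 3697 (326, rank 32) in replicate 4, at 24% and 33%. The pooled summit at 3631 followed replicates 3 and 4.

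ND3, at 336 bp the shortest gene of the set, was the one whose optimal peak had its summit outside the coding sequence. That summit lay at 11082, 274 bp before the ND3 start and within the large ribosomal RNA gene, and it counted by the nearest 5′ end. The corresponding summits lay at 11166 (signal 187, rank 24) in replicate 1, 11068 (140, rank 36) in replicate 3 and 11029 (425, rank 19) in replicate 4. Summits inside ND3 were called in replicate 1 (11404, signal 285, rank 13) and replicate 3 (11464, signal 49.2, rank 275), and none in replicate 4.

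**Figure D2:**
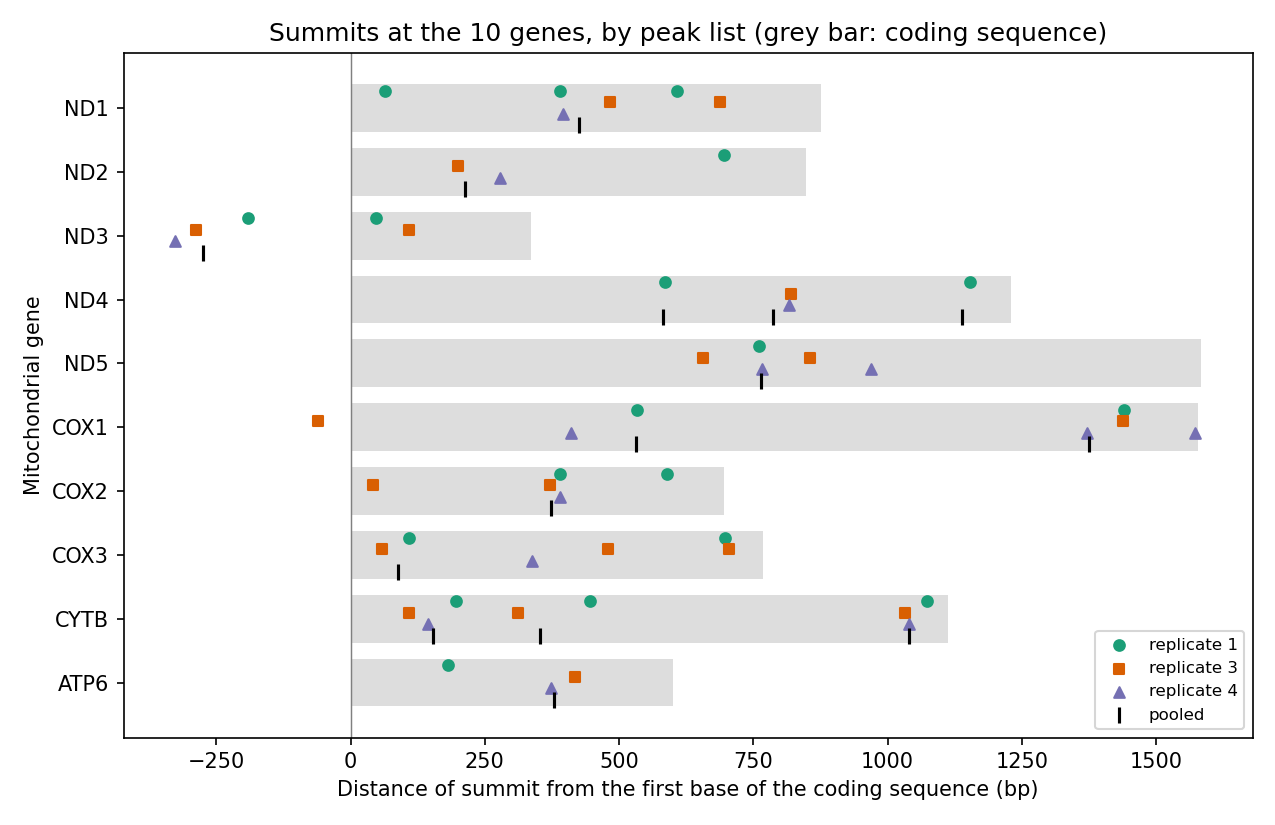
Distance in bp from the first base of the coding sequence to each summit at the 10 genes, with grey bars for the coding sequences and 1 symbol per list (replicates 1, 3 and 4 and the pooled list). The highest summits of the replicates fell within 100 bp at COX2, at ND1 and in the downstream part of COX1. They lay furthest apart at CYTB (928 bp), where a different end led in replicate 4, COX3 (639 bp) and ND2 (495 bp). At COX2 and COX3 lower summits changed that picture.

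CYTB, the only mitochondrial gene of complex III, had a strong summit at each end. Near its 3′ end the pooled summit lay at 5544 (signal 1444, rank 4), and the replicate summits at 5577 (674, rank 1), 5536 (302, rank 5) and 5544 (448, rank 17) in replicates 1, 3 and 4. This was the highest peak of any in replicate 1. Near the 5′ end the pooled summit lay at 4658 (944, rank 16), and the replicate summits at 4701 (208, rank 20), 4613 (253, rank 11) and 4649 (627, rank 8). In replicate 4 the 5′ summit was the higher one, and in replicates 1 and 3 the 3′ summit was.

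Among complex IV genes COX1, which encodes the catalytic subunit, was the steadiest in rank. Its highest summit lay at 9285 (signal 592, rank 2) in replicate 1, 9284 (404, rank 2) in replicate 3 and 9216 (848, rank 4) in replicate 4, and at 9221 (1816, rank 2) in the pooled list, 201 bp before tRNA-Cys. An upstream COX1 summit at 8377 in the pooled list (725) recurred at 8379 in replicate 1 (429, rank 4). In replicate 4 the nearest was at 8255 (317, rank 36) and in replicate 3 there was none inside the first part of the gene, the closest being an intergenic summit at 7784 (182, rank 24). Summits fell on both sides of the boundary of the gene: one at 9417 in replicate 4 lay inside COX1, which ends at 9422, and so counted, while the pooled one at 9432 lay in tRNA-Cys and did not.

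By highest summits COX2 had the smallest spread of position, with these at 10039 in replicate 1, 10020 in replicate 3 and 10039 in replicate 4, but one of the widest spreads of rank. Its ranks were 137 (signal 85.4), 346 (43.7) and 34 (323) in replicates 1, 3 and 4. Replicate 3 had a second COX2 summit of nearly the same signal at 9690 (40.1, rank 425), and replicate 1 a second one at 10238 (53.6, rank 291). COX3 had its highest summit at 6375 (signal 134, rank 61) in replicate 1, 5736 (232, rank 15) in replicate 3 and 6016 (149, rank 156) in replicate 4, a span of 639 bp within a coding sequence of 768 bp. Replicate 3 also had lower COX3 summits at 6157 (110.5, rank 59) and 6383 (110.4, rank 60), the second of them close to the highest one of replicate 1, so the span holds for the highest summits only. The pooled COX3 summit lay at 5767 (576, rank 41), with a low summit at 5786 (45.7, rank 374) beside it in replicate 1. ATP6 had a summit at 2816 (130, rank 65) in replicate 1, 3052 (128, rank 39) in replicate 3 and 3008 (600, rank 11) in replicate 4, against 3013 (765, rank 19) in the pooled list.

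**Figure D3:**
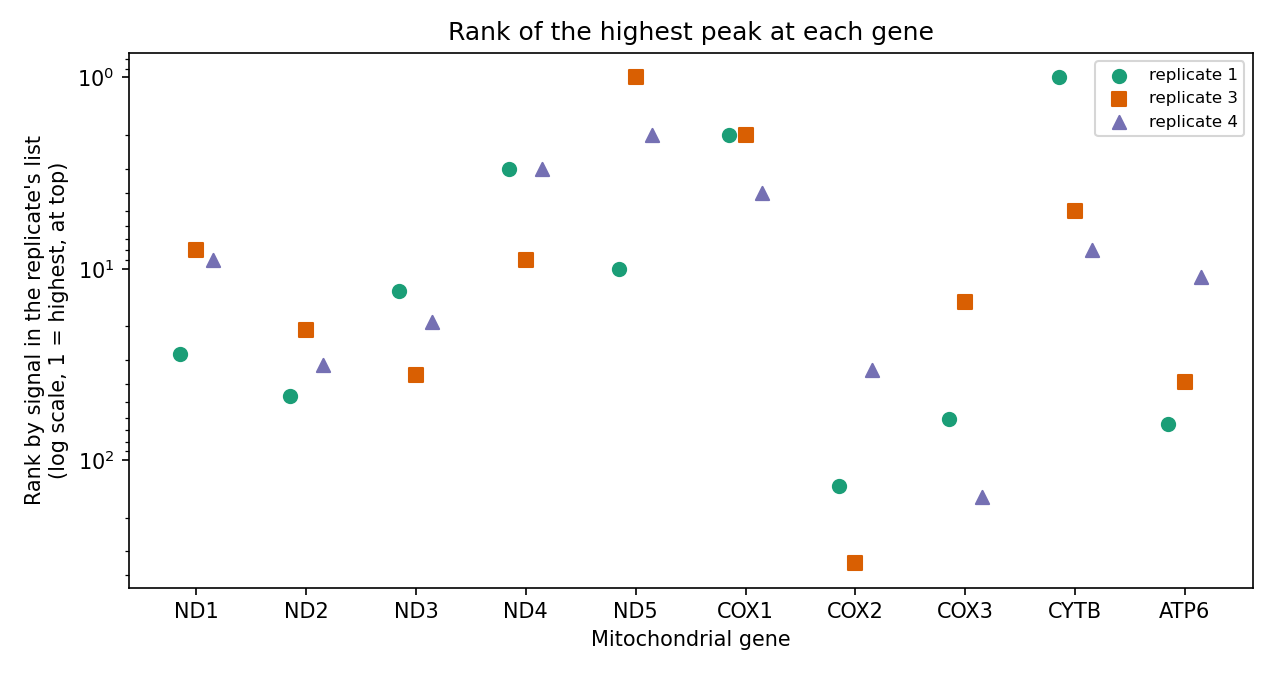
Rank by signal, on a log axis with rank 1 at the top, of the highest peak at each of the 10 genes in the lists of replicates 1, 3 and 4. COX1 stayed between ranks 2 and 4 and COX2 ranged from 34 to 346.

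By rank of the highest peak, 4 of the 10 genes (ND4, ND5, COX1 and CYTB) were among the 25 highest peaks in every replicate, 8 were among the 100 highest, and all 10 were among the 1000 highest. COX2 and COX3 were the genes outside the 100 highest in some replicate. The order of the 10 genes by highest signal had a Spearman's rho of 0.794 between replicates 1 and 3, 0.758 between 1 and 4 and 0.758 between 3 and 4. The genes share 1 chromosome and 1 control alignment, so these are descriptions over 10 points and not independent evidence. Highest signal also followed coding length, with rho of 0.697 in replicate 1, 0.903 in replicate 3 and 0.794 in replicate 4. The highest was taken over all peaks of a gene, a longer gene can hold more of them, and their number was not allowed for.

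The distance between the outermost replicate summits of a gene, taking the highest in each, ranged from 19 bp (COX2) to 928 bp (CYTB, where a different end led in replicate 4), with a median of 235 bp. It was within 100 bp for 3 of 10 genes (ND1, COX1 and COX2). Of the 14 optimal peaks of the set, 7 had a summit within 100 bp in every replicate, those in ND1, at both ends of CYTB, in the downstream part of COX1, in COX2, before ND3 and in ND5. Over all optimal peaks this share was 83%, and over the 570 nuclear ones 84.0%. Replicates 3 and 4 entered the optimal list and replicate 1 did not. Where intervals had to overlap by at least 50% of each in every replicate, 4 of 14 peaks of the set passed, against 73.9% of all optimal peaks and 75.4% of nuclear ones. By summits within 100 bp, 4 further members were found in 2 replicates and 3 in 1 replicate. Per replicate, 78.6%, 78.6% and 71.4% of the set were found in replicates 1, 3 and 4, against 94.0%, 90.7% and 98.1% of nuclear optimal peaks. The difference was -18.1 percentage points ± 7.60 (SD, n = 3), below 0 in 3 of 3 replicates, with an exact sign-flip p of 0.25, the smallest possible (adjusted 0.333). Among the 1000 highest peaks of every replicate 7 of 14 were found as well, against 56.9% of all optimal peaks and 57.0% of nuclear ones. Nearly all peaks of the set were among those 1000, so the cutoff could hardly change its count. The nuclear share fell under it from 84.0%. That the share for the set lay near the background at this depth therefore says nothing about recurrence.

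Summits were dense on this chromosome, so a match within 100 bp says less there than elsewhere. The median spacing between neighbouring mitochondrial summits was 545 bp in replicate 1, 421 bp in replicate 3 and 774 bp in replicate 4. Bases within 100 bp of any summit made up 37.9%, 34.9% and 24.8% of the chromosome, and called intervals covered 52.0%, 55.7% and 44.3% of it. The coding sequences of the set themselves make up 69.8% of its 13794 bp. Relative to pooled summits of the set, matched replicate summits lay a median of 17.5 bp away in replicate 1 (12 matched), -5.5 bp in replicate 3 (12) and -2.5 bp in replicate 4 (10), where positive values are downstream. The median absolute distance was 26, 36 and 12.5 bp in replicates 1, 3 and 4, against 18, 28 and 10 bp at nuclear optimal peaks. It was larger for the set in 3 of 3 replicates, by 6.17 bp ± 3.18 (SD, n = 3, exact sign-flip p = 0.25, adjusted 0.333). The sides of this comparison were not chosen alike. The set's side took all its 15 pooled peaks, including the low second CYTB summit outside the optimal list, and the nuclear side took optimal peaks only. That CYTB summit had a match in replicates 1 and 3 and none in replicate 4. The difference with optimal peaks on both sides was not tested, so its size is uncertain.

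Fewer peaks of the set than of each whole list had the list's most common width, and at like rank the set was not shown to differ from nuclear peaks in width. The peaks of a list mostly had 1 fixed width, 404 bp in replicate 1, 490 bp in replicate 3 and 464 bp in replicate 4, shared by 99.7%, 99.9% and 99.5% of nuclear peaks. Of the set 11 of 19, 14 of 19 and 7 of 14 peaks had it. Each summit counts as a peak, also where summits share an interval, so these peaks had 18, 19 and 13 distinct intervals. Among the 589 highest nuclear peaks of each replicate the share at the fixed width was 88.5%, 96.6% and 77.2%. These reach lower ranks than most of the set, so the shares were not compared at like rank. Nuclear peaks of like rank, given next, had medians below the fixed width in every replicate.

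Against the 20 nuclear peaks nearest in rank, the median width of the set was 404 bp against 287 bp in replicate 1, 490 bp against 284 bp in replicate 3 and 464 bp against 402 bp in replicate 4. The median of the paired differences was 49, 0 and 62 bp, a mean of 37 bp ± 32.7 (SD, n = 3), and the exact sign-flip test gave p = 0.5 (adjusted 0.5). With 1 of the differences at 0, 0.5 is the smallest p this test could give, so it cannot decide whether widths differ. In no replicate was the difference below 0. The mean was 78.8 bp against the 100 nuclear peaks nearest in rank (p = 0.5 by the same exact test) and 97.7 bp with coding-sequence summits only (p = 0.25 by the same exact test). Without replicate 3 it was 55.5 bp and without replicate 4 it was 24.5 bp. The narrowest peaks were at ND5 (136 bp) and ND4 (137 bp) in replicate 1 and before COX1 (123 bp) in replicate 3. The downstream COX1 peak exceeded the fixed width in every replicate, with 673 bp, 795 bp and 542 bp in replicates 1, 3 and 4, and 1092 bp in the pooled list. In each of these lists its interval also held a second summit, at 9487 in replicate 1 and 9483 in replicate 3, both in tRNA-Met, at 9417 in COX1 in replicate 4, and at 9432 in tRNA-Cys in the pooled list. In replicate 3 it held the COX2 summit at 9690 as well. That summit was listed with a wider interval of 829 bp, and the one at 9417 in replicate 4 with one of 711 bp.

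**Figure D4:**
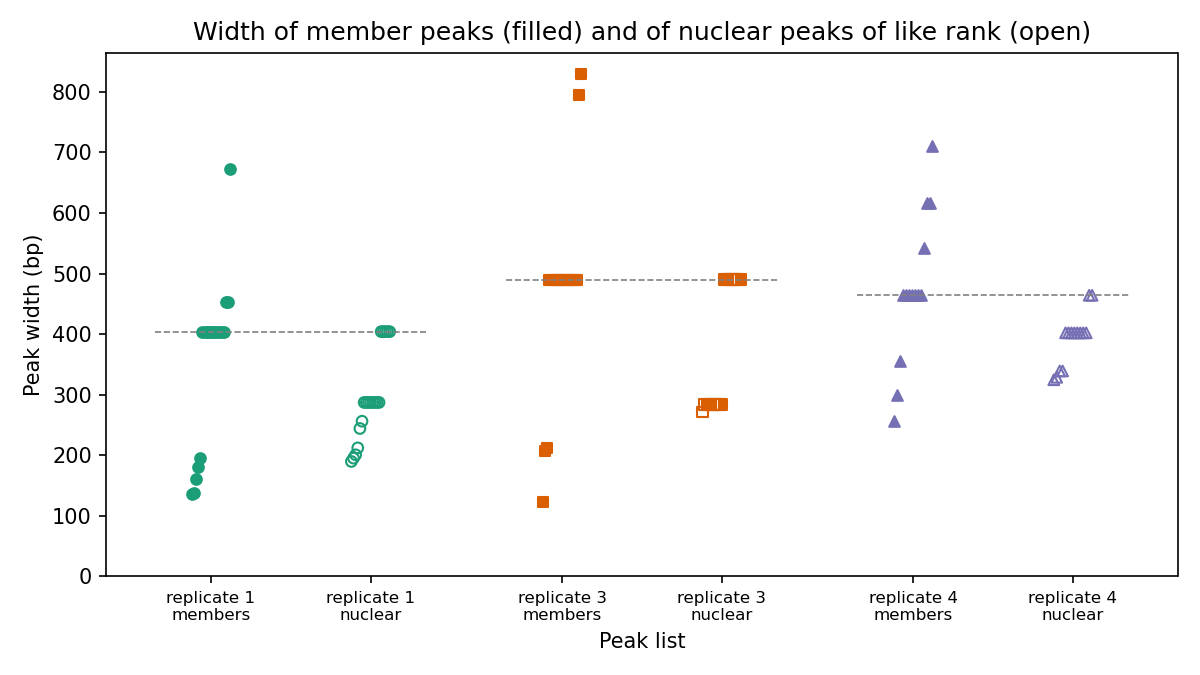
Width in bp of every peak of the mitochondrial set (filled symbols) and the median width of the 20 nuclear peaks nearest to each in rank (open symbols), in replicates 1, 3 and 4, with a dashed line at the list's most common width. Each summit has its own symbol, so an interval shared by summits appears more than once. Peaks of the set lay on the line (404, 490 and 464 bp) and on both sides of it.

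No summit lay in the noncoding stretch that follows tRNA-Ala (positions 13329 to 13794), which holds 6.87% GC and separates the ends of the gene array, and no interval of any list reached it. The last summit lay at 12451 in replicate 1, 12547 in replicate 3, 12661 in replicate 4 and 12456 in the pooled list, all in ND5. The stretch from there around the circle to the first summit was 1474 bp in replicate 1, 1444 bp in replicate 3 and 2328 bp in replicate 4. It was longer in replicate 4 because its first summit was at 1195, in the small ribosomal RNA gene, whereas the other lists had one in ND6 between 128 and 197. Elsewhere the longest gap between neighbouring summits was 1047, 1500 and 1429 bp in replicates 1, 3 and 4, so in replicate 3 it was the longer one. The noncoding stretch is 466 bp long, and the median spacing of summits was 545, 421 and 774 bp. Its lack of summits therefore does not by itself set it apart.

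The set was not set apart from the rest of its chromosome by rank. The other mitochondrial peaks, at the ribosomal RNA genes, ND6 and tRNA genes, numbered 7, 5 and 3 in replicates 1, 3 and 4. The median rank of the set was 28, 24 and 18 in replicates 1, 3 and 4, and that of the other mitochondrial peaks 32, 7 and 5. Of the 3 highest mitochondrial peaks in the pooled list, those at ND5 and COX1 belonged to the set, and the peak at the large ribosomal RNA gene (summit 10837, signal 1584, rank 3) did not. The nuclear optimal peaks whose ranks over the 3 replicates came nearest to those at the pooled ND5 summit (10, 18 and 2 in replicates 1, 3 and 4) were at the snoRNA genes W03C9.9 (8, 14 and 6) and C51F7.4 (6, 6 and 7) and the coding gene K12H4.5 (14, 10 and 10), by distance in log10 rank. The rank of 18 is that of the lower ND5 summit of replicate 3, the nearest to the pooled one. The highest ND5 summit there had rank 1, and the choice of nuclear peaks with that rank was not tested.

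Most subunits of the respiratory chain are encoded in the nucleus. Of 50 such genes and genes for upkeep of mitochondrial DNA, 5 had the nearest 5′ end to an optimal summit within 2000 bp, against 0.981% of 19971 nuclear coding genes, and 27 to a pooled summit, against 42.1%. The 5 were mtss-1, the single-stranded DNA-binding protein of mitochondria (pooled rank 234, signal 225), cox-5B of complex IV (322, 179.5), ucr-2.2 of complex III (369, 165), and nuo-2 (432, 150.5) and nduf-11 (530, 132) of complex I. None of the 10 ATP synthase genes or 5 complex II genes did, which at a background of 0.981% does not set them apart. A pooled summit lay nearest to 7 of these 10 and 2 of these 5, against 42.1% of nuclear coding genes. The ND4 peak at 7645 (rank 286) stood between mtss-1 and cox-5B in the pooled list, and the other optimal peaks of the mitochondrial set ranked above all 5. The most common pooled width of 456 bp was shared by 2 of the 14 optimal peaks of the set and by all 5 of these. Among nuclear peaks 60.5% had it in the optimal list and 99.2% in the pooled list. These 5 ranked from 234 to 530, so the counts were not compared at like rank. In the optimal list the set had a median width of 425 bp against 443 bp at nuclear peaks of like rank, with a median paired difference of 0 bp.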

How the data were processed

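Chromatin from 3 biological replicates of 1 group was profiled, and the 5 deposited peak lists were used. Per the deposited file listing, each replicate's list was called from its own alignments and the pooled list from the alignments of all 3, with 1 control alignment throughout. The same listing traces the optimal list, thresholded by irreproducible discovery rate, to the pooled list and those of replicates 4 and 3. No source used here names the aligner or the caller. The authors deposited a signal value and a −log10 q per peak, and starts, ends and summit offsets in ce11, given here counted from 1. Genes and sequence are those of RefSeq on WBcel235; 0 peaks ended beyond their chromosome. Ranks run by signal within a list. Replicates were summarised as mean ± SD, and 4 differences were tested with two-sided exact sign-flip permutation tests over the 3 replicates, of which only the width test was planned. With 3 replicates the smallest p is 0.25, or 0.5 where 1 of the differences is 0, as for width. Depth is unknown, so precision rests on the number of replicates.

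Members and lists were chosen with earlier results of these data known. All 10 genes were named, other genes only as neighbours, among the 3 highest mitochondrial peaks as the 3 nearest in rank pattern, or, for 5 of the 50 nuclear respiratory genes listed, because an optimal peak lay nearest to them, a choice made after that was seen. Alternatives varied membership, matching distance, list depth, rank neighbours and signal summary, and left out each replicate. Procedures were tested on simulated data. Python 3.11.15, numpy 2.4.6, pandas 2.3.3 and matplotlib 3.10.9 were used.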

Additional observations from a re-analysis of the deposited data

How the results depend on the processing

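Of the alternatives tried, 30 left a result within its replicate spread or within 1.5 times its count, and 11 moved it. With membership by nearest 5′ end only, the set held 12 peaks in replicate 3 and 8 in replicate 4, and 4 of its optimal peaks were found in every replicate. That count, 7 as reported, was 3 with summits within 50 bp and 4 when intervals had to overlap by at least 50% of each. The mean of the median ranks was 11.7 over peaks matched to an optimal one. The signal ratio to nuclear optimal peaks was 3.93 by means, 5.05 with coding-sequence summits only and 5.13 against nuclear peaks away from small RNA genes. The width difference, 37 bp as reported, was 78.8 bp against the 100 nuclear peaks nearest in rank and 97.7 bp with coding-sequence summits only. Leaving out a replicate gave 7 to 10 recurring peaks, mean offsets of -4 to 7.5 bp, width differences of 24.5 bp (without replicate 4) to 55.5 bp (without replicate 3) and median ranks of 21 to 26. Read depth was not analysed here and limits every value to an unknown degree.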
